A study of Homo sapiens with 12 samples.

Results

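The genes described here are the subunits of the transcription factor NF-κB and the inhibitors that hold it in check. They comprised the 5 subunit genes NFKB1, NFKB2, REL, RELA and RELB and 5 genes grouped as inhibitors, NFKBIA, NFKBIB, NFKBIE, NFKBIZ and TNFAIP3. Among the latter, NFKBIZ encodes a protein that also acts as a cofactor at some NF-κB genes. A gene was read from the transcript cluster that carries its symbol and no other. A transcript cluster is a set of array probes summarised into 1 value. Each of the 10 genes had exactly 1 such cluster, so all 10 were measured, among 17958 genes in all.

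NF-κB is a family of dimers built from 5 related proteins. In resting cells most dimers are kept in the cytoplasm by IκB proteins, and an activated IκB kinase (IKK) complex marks the IκB for destruction, so that the dimer enters the nucleus and switches on genes of inflammation and cell survival. Several of these genes encode the inhibitors themselves, which gives the pathway a negative feedback. In breast cancer, NF-κB activity is best known from receptor-negative tumors and cell lines.

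The data came from BT549, a triple-negative breast cancer cell line, with its RNA put on 12 Affymetrix Human Gene ST arrays, 3 biological replicates in each of 4 groups. In the first pair of groups, cells received siRNA against estrogen receptor β2 (ERβ2, an isoform of ERβ) or control siRNA with the INTERFERin reagent, and RNA was taken 48 h later. In the other pair, cells received the pcDNA3 plasmid with a FLAG-tagged ERβ2 cDNA or the empty vector (EV) with a Lipofectamine reagent, and RNA was taken 24 h later. Which ERβ2 siRNA set was put on the arrays is not given, and everything was done in 1 cell line with transient transfection.

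The values are on a log2 scale, ran from 2.02 to 13.46 and had medians of 5.04 to 5.14 per array. The ERβ2 siRNA arrays had medians of 5.04 to 5.06, below those of all other arrays. Arrays of a group had mean correlations of 0.997 to 0.999 with each other. Arrays have no read depth, and the number of arrays, 3 per group, limits the precision. The cell line was checked by markers. Mean signals of the mesenchymal genes VIM, CD44, FN1 and SPARC lay above those of 98.3% of genes or more, and the 4 measured leukocyte markers lay above 4.46% to 49.6%. The 8 luminal markers were divided, with ESR1, PGR, EPCAM and CDH1 above 10.1% to 20.2% of genes, and KRT8, ERBB2, GATA3 and KRT18 above 61.3%, 68.2%, 74.7% and 91.4%. Their mean signal ran from 6.35 to 6.39 in ERβ2 siRNA arrays and from 6.16 to 6.27 in control siRNA arrays, and its part in the results was not tested. ESR2, the gene of ERβ with all its isoforms, differed by −0.02 between ERβ2 siRNA and control siRNA (adjusted p = 0.913) and by 0.47 between ERβ2 plasmid and EV (adjusted p = 0.449, limma). Its signal was weak, at 3.80 to 4.12 in ERβ2 siRNA arrays and 3.88 to 4.05 in control siRNA arrays, below every array median. It spanned 4.35 to 4.72 in ERβ2 plasmid arrays and 3.93 to 4.08 in EV arrays, without overlap (unadjusted p = 0.00167, limma). ESR2 therefore gives no check of the siRNA labels. A gene was said to rise or fall where its adjusted p did not exceed 0.1 in limma, a linear model fitted across all 17958 genes with Benjamini-Hochberg adjustment over them.

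The DNA upstream of these genes is shown first, since several genes of the family are textbook targets of NF-κB itself. Promoter sequence was taken from RefSeq (build GRCh38.p14), as windows of 250 bases before to 50 bases after each annotated transcription start, and was searched on both strands for the κB consensus, the 10-base pattern bound by NF-κB dimers. Overlapping matches were merged. Of the 10 genes, 8 were in the promoter table, with 14 windows, and RELB and NFKBIE were not. A match was found for 7 of these 8 genes, in 9 windows, at 12 places, whereas 7.09% of all 27305 genes and 5.91% of all 35116 windows held one. RELA held none in its windows. With 1 mismatch allowed, the same number of the 8 genes, 7, and 54.3% of all genes held a match. A match describes the letters and does not show that a factor binds there.

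The whole 250 bases upstream of the start are shown for TNFAIP3 (chr6:137867009-137867258, plus strand), REL (chr2:60881324-60881573, plus strand) and NFKBIA (chr14:35404750-35404999, minus strand), because these genes had the largest differences in the comparisons that follow and have 1 annotated start each. Sequences run 5′ to 3′ on the strand of the gene, and capitals mark the matches.
TNFAIP3: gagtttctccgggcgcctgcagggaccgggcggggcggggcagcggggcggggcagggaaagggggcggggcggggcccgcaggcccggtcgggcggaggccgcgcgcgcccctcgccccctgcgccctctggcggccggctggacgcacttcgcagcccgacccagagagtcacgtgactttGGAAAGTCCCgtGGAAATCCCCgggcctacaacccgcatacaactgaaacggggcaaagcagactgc
REL: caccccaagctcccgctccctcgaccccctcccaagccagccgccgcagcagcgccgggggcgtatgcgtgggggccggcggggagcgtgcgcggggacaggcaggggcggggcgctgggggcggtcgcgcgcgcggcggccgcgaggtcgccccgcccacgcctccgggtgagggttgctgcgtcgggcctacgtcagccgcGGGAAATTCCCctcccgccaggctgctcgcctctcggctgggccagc
NFKBIA: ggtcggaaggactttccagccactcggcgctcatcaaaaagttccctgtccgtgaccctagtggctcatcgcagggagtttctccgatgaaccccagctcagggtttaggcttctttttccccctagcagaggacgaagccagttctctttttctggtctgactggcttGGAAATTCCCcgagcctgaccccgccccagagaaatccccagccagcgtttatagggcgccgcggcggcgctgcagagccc

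TNFAIP3 had 2 matches, 67 to 58 and 55 to 46 bases before the start, both read on the other strand. The match of REL lay 47 to 37 bases before the start and reads on both strands. That of NFKBIA lay 81 to 72 bases before the start on the other strand.

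For the other genes only the matches and up to 25 bases on either side are shown, cut at the start where that comes sooner, to set their letters beside each other. They lie at chr4:102501285-102501344 (NFKB1), chr10:102394446-102394534 (NFKB2, start 2), chr10:102395504-102395563 and chr10:102395659-102395704 (NFKB2, start 3, distal and proximal), chr19:38899916-38899968 (NFKBIB, start 2), chr3:101827742-101827801 (NFKBIZ, start 1) and chr3:101849264-101849309 (NFKBIZ, start 2), all on the plus strand.
NFKB1: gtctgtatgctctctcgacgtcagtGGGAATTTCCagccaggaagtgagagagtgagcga
NFKB2 start 2: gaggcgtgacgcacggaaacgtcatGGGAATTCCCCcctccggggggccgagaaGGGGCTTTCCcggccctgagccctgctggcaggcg
NFKB2 start 3, distal: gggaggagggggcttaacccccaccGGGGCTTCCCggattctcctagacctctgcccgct
NFKB2 start 3, proximal: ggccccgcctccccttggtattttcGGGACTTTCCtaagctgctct
NFKBIB start 2: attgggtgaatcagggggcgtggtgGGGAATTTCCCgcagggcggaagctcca
NFKBIZ start 1: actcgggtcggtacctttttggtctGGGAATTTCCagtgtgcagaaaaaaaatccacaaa
NFKBIZ start 2: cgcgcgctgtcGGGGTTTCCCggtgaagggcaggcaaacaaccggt

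The 10 letters GGGAATTTCC, picked out after the matches had been read, occurred on either strand in the windows of NFKB1, REL, NFKBIA, NFKBIB and NFKBIZ, and in those of 49 of all 27305 genes (0.179%). NFKB2 and TNFAIP3 shared GGGACTTTCC, which 62 genes held (0.227%). NFKB2 held the most matches of the family, 4 over 2 of its 3 starts. Most matches lay close to the start, and those of NFKBIZ lay farthest from it, up to 239 bases upstream.

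**Figure D1:**
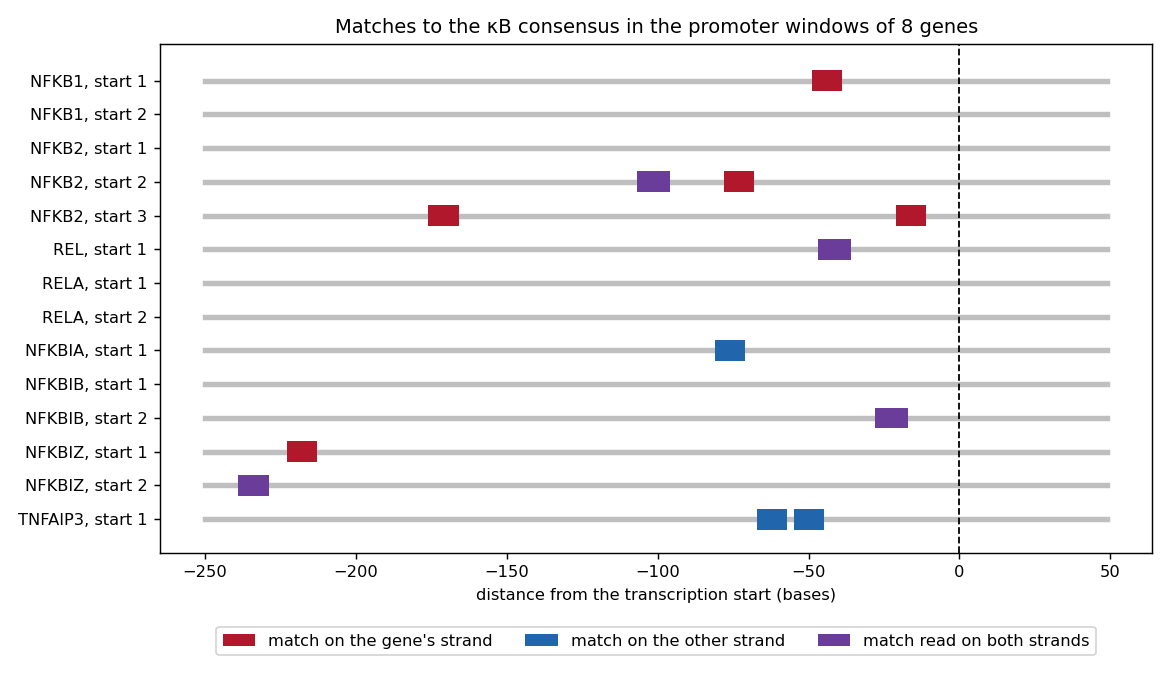
Matches to the κB consensus in the 14 promoter windows of 8 NF-κB genes. The horizontal axis is the distance from the transcription start in bases, each grey line is 1 window, and boxes are matches, coloured by the strand on which they read. Of the 14 windows, 9 hold a match, and both windows of RELA hold none.

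After ERβ2 knockdown, 4 of the 10 genes rose and none fell. These were REL, TNFAIP3, NFKBIA and NFKBIZ, that is 1 subunit and 3 genes grouped here as inhibitors, with log2 changes of 0.27 to 0.99. Among all genes tested, 18.3% rose and 17.5% fell. The median change of the family was 0.15, against −0.03 over all genes. REL alone also reached a fold of 1.5, which 3.25% of all genes did in the upward direction.

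REL encodes c-Rel, a subunit with a strong transactivation domain that is best known from lymphocytes. Its log2 values were 7.28, 7.17 and 7.20 in ERβ2 siRNA arrays, against 6.38, 6.14 and 6.17 in control siRNA arrays. All 3 knockdown arrays lay well above all 3 control arrays. The change was 0.99 (SE 0.08, 95% CI 0.81 to 1.16, adjusted p = 5.3e-05, limma), a fold of 1.98, and REL stood in place 125 of 17958 genes ordered by log2 change. In RNA of whole cultures, more cells that express REL and more REL RNA per cell cannot be told apart, here and for every other gene.

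The other 4 subunits did not pass the test. NFKB1, whose precursor protein is processed into a DNA-binding subunit, had 9.21, 9.25 and 9.29 in ERβ2 siRNA arrays, against 9.43, 9.30 and 9.33 in control siRNA arrays. Its knockdown arrays lay just below the control arrays, with a change of −0.10 (SE 0.06, 95% CI −0.24 to 0.03, adjusted p = 0.231, limma). NFKB2, the precursor of the subunit of the non-canonical pathway, had 9.39, 9.18 and 9.33 in ERβ2 siRNA arrays and 9.17, 9.09 and 9.17 in control siRNA arrays. The groups did not overlap, by a narrow margin, and the change of 0.16 missed the threshold (SE 0.07, adjusted p = 0.126, limma). RELB, the partner of NFKB2 in the non-canonical pathway, differed by 0.15 with overlapping arrays (95% CI −0.01 to 0.31, adjusted p = 0.141). RELA, which encodes the main transactivating subunit of the canonical pathway, differed by 0.04 (95% CI −0.14 to 0.23, adjusted p = 0.723). NFKB2 passed when ERβ2 siRNA replicate 2 was left out (adjusted p = 0.0519), with an intensity trend in the limma prior (adjusted p = 0.0469) and by q-values of the methods' test (0.0933). RELB passed when control siRNA replicate 1 was left out (adjusted p = 0.0580). Both passed after median centring of the arrays (adjusted p = 0.0586 for NFKB2 and 0.0738 for RELB) and without dim genes (adjusted p = 0.0803 and 0.0918). Centring also changed the split over all genes, to 4035 higher and 1968 lower from limma, against 3279 higher and 3150 lower without it.

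Among the inhibitors, TNFAIP3 showed the largest change. It encodes a ubiquitin-editing enzyme that shuts off signalling upstream of IKK. Its log2 values were 7.76, 7.46 and 7.59 in ERβ2 siRNA arrays, against 7.20, 7.03 and 6.98 in control siRNA arrays. The groups did not overlap, and the fold was 1.45 (95% CI of the log2 change 0.33 to 0.74, adjusted p = 0.00296, limma). NFKBIA, the classical IκBα that is resynthesised after each activation, had 10.78, 10.50 and 10.62 in ERβ2 siRNA arrays and 10.44, 10.29 and 10.20 in control siRNA arrays. The lowest knockdown array, 10.50, lay close above the highest control array, 10.44. NFKBIA rose by 0.32 (SE 0.09, adjusted p = 0.0275, limma), a fold of 1.25.

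NFKBIZ encodes IκBζ, a nuclear IκB-like protein that acts as a cofactor at a subset of NF-κB genes. Its arrays were the tightest of the family, with 8.77, 8.69 and 8.75 for ERβ2 siRNA against 8.48, 8.44 and 8.47 for control siRNA. The groups were clearly apart, and NFKBIZ rose by 0.27 (SE 0.05, adjusted p = 0.00602, limma). The remaining IκB genes did not pass. NFKBIB (IκBβ) differed by −0.09 (95% CI −0.22 to 0.04, adjusted p = 0.263) and NFKBIE (IκBε) by 0.02 (95% CI −0.15 to 0.20, adjusted p = 0.852), both with overlapping arrays. Over the family, 5 genes had all ERβ2 siRNA arrays above all control siRNA arrays, which held for 21.1% of all genes, and 1 had them below, which held for 21.3%.

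**Figure D2:**
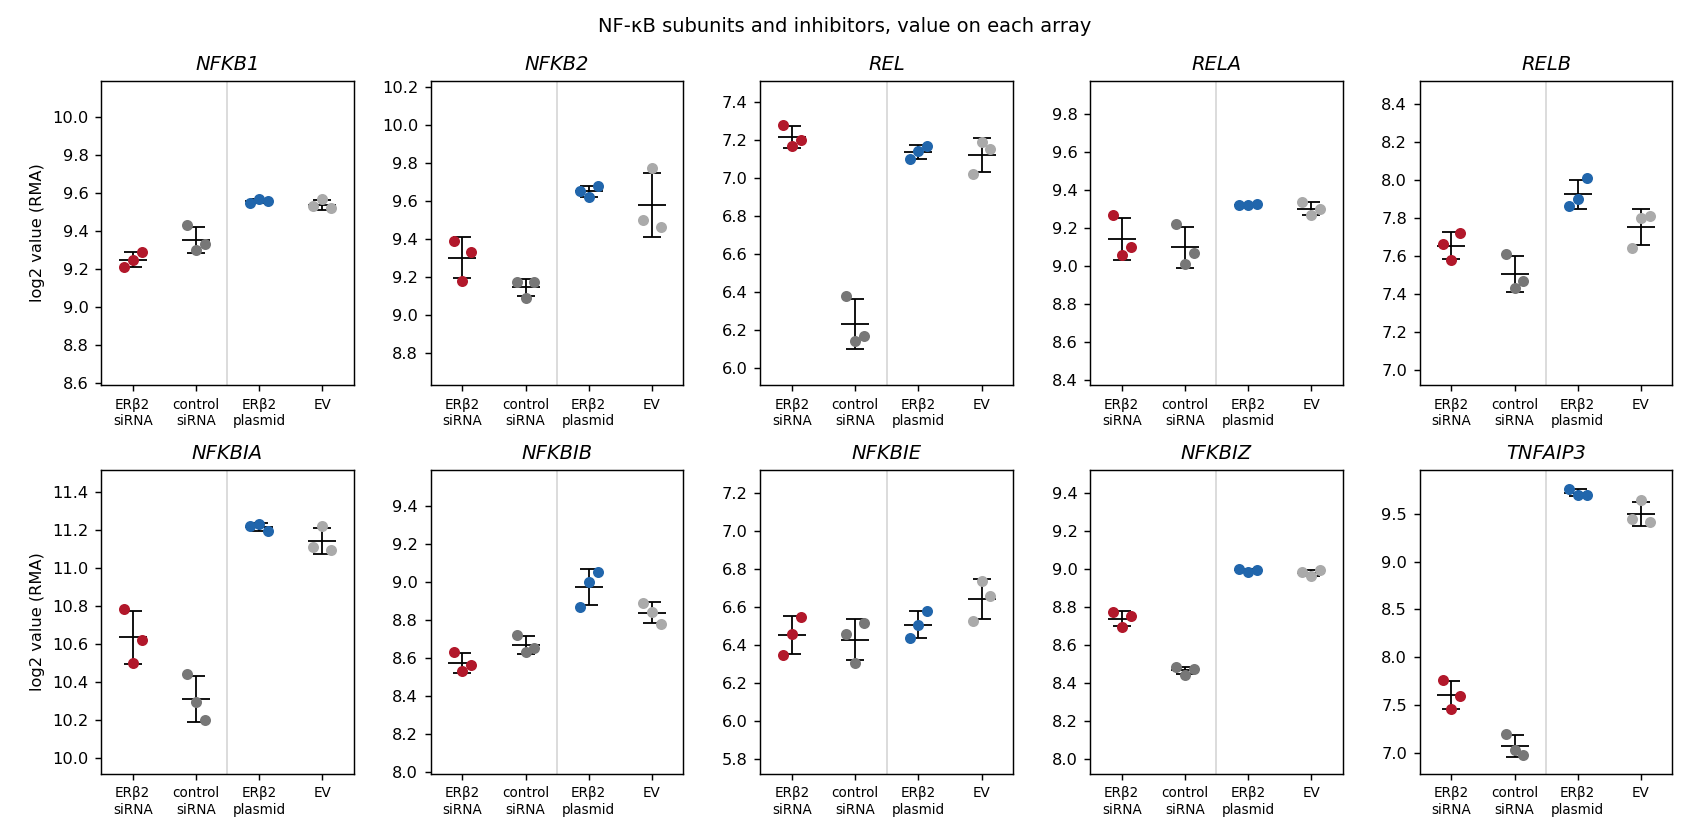
Log2 value of each NF-κB gene on every array. Points are arrays, the long line is the mean and the whiskers are 1 SD (n = 3), with ERβ2 siRNA beside control siRNA and ERβ2 plasmid beside EV; vertical axes do not start at 0, and that of TNFAIP3 spans a wider range. The 3 control siRNA arrays of REL, at 6.14 to 6.38, lie below the other 9, and the TNFAIP3 values fall into a low siRNA pair of groups and a high plasmid pair.

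The surrounding pathway was described with gene lists chosen with earlier results of these data known, so their counts are no independent evidence. Of 38 measured NF-κB target genes, 19 rose and 3 fell after ERβ2 knockdown, with a median change of 0.23. The largest rises were those of CCL20, a chemokine for immature dendritic cells and T cells, by 2.50 (SE 0.11, adjusted p = 5.2e-06), the cytokine IL6 by 1.33 (SE 0.08, adjusted p = 1.6e-05) and PTGS2, the inducible cyclooxygenase, by 1.02 (SE 0.09, adjusted p = 1.2e-04). IL6 spanned 8.95 to 8.98 in ERβ2 siRNA arrays and 7.47 to 7.75 in control siRNA arrays. Over 17 alternatives, which included the mean over all transcript clusters of a gene, the rise of IL6 ran from 0.625 to 1.38. It passed in each, but its size depended on the processing or the choice of cluster. Values of any other IL6 cluster are not shown here. The chemokine gene CCL5 went the other way, with 7.99 to 8.22 in ERβ2 siRNA arrays and 8.74 to 8.85 in control siRNA arrays, a change of −0.71 (adjusted p = 2.1e-04, limma). Of the 19 target genes that rose, 9 also reached a fold of 1.5.

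Of 25 measured genes of the IKK complex and its upstream signalling, 6 rose and 5 fell, shares of 24% and 20% that lay near those of all genes. After median centring 8 rose and 1 fell, and at an adjusted p of 0.05 the numbers were 5 and 1. MAP3K8, a kinase that is held by the NFKB1 precursor, rose by 0.82 (SE 0.08, adjusted p = 1.5e-04), with 7.60 to 7.72 in ERβ2 siRNA arrays and 6.78 to 7.01 in control siRNA arrays. BTRC, the ubiquitin ligase component that recognises phosphorylated IκB, fell by 0.75 (SE 0.09, adjusted p = 4.1e-04, limma), with 7.05 to 7.27 in ERβ2 siRNA arrays against 7.80 to 8.03 in control siRNA arrays. The adaptor TRAF5 rose by 0.32 (adjusted p = 0.00883, limma), from a weak signal. It spanned 4.59 to 4.79 in ERβ2 siRNA arrays and 4.36 to 4.44 in control siRNA arrays, below the lowest array median of 5.04. Of 17 other brakes on the pathway, 3 rose and 1 fell, or 0 after median centring. The risers were TNIP1, which binds the TNFAIP3 protein, by 0.54, N4BP1 by 0.45 and TAX1BP1, an adaptor of TNFAIP3, by 0.37 (adjusted p from 5.6e-04 to 0.00319, limma). None of the 3 other IκB-like genes, among them BCL3, passed. Beside the 18.3% of all genes that rose, the shares were 24% upstream, 17.6% of the brakes and 50% of the targets.

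**Figure D3:**
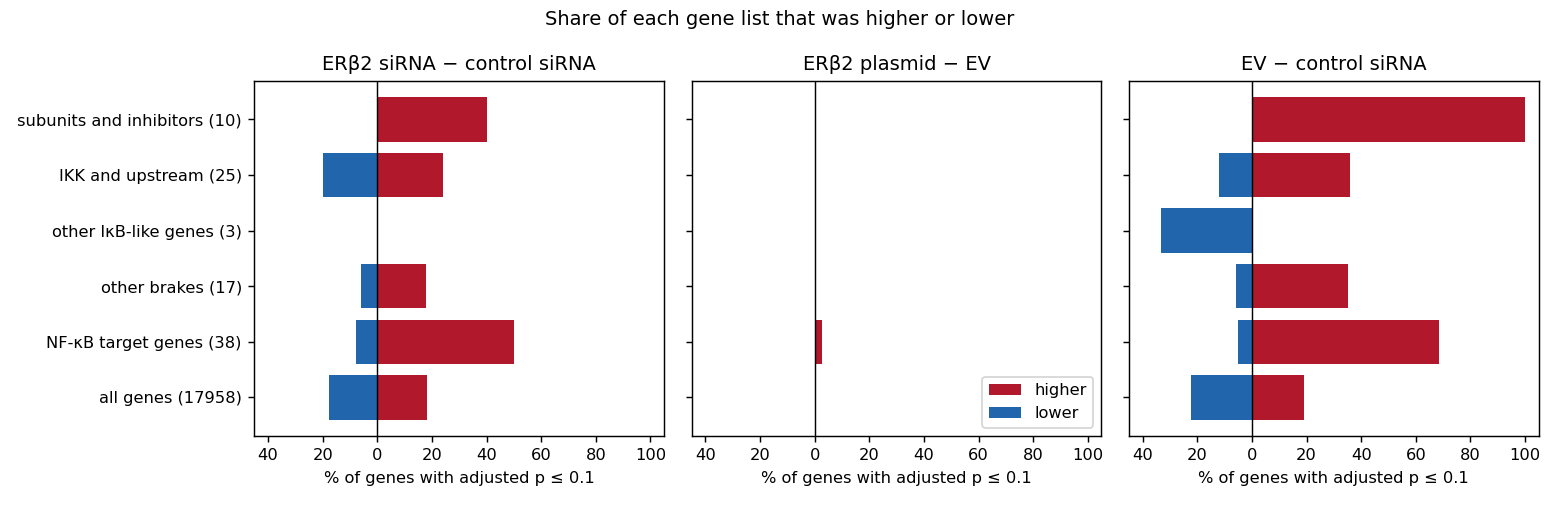
Share of each gene list that passed limma's test (adjusted p ≤ 0.1), for 3 comparisons. Bars to the right of 0 are genes that were higher in the group named first, bars to the left are lower ones, and the number of measured genes stands in parentheses. In the knockdown 40% of the 10 subunit and inhibitor genes and 50% of the 38 targets were higher, against 18.3% of all genes.

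With ERβ2 overexpression, none of the 10 genes passed in either direction in limma, and of all genes 0.0111% were higher and 0.00% lower. The lowest adjusted p of the family was 0.585, for TNFAIP3. At an unadjusted p under 0.05 there were 2 family members and 1260 of all genes. By the test of the study's methods, 0 genes of the family and 0 of all 17958 genes passed. The median change of the family was 0.05, with 9 of 10 changes above 0. Over all genes the median was −0.003, with 8550 of 17958 above 0.

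The 2 members were TNFAIP3 and RELB. TNFAIP3 had 9.76, 9.70 and 9.70 in ERβ2 plasmid arrays and 9.44, 9.64 and 9.41 in EV arrays. Its plasmid arrays all lay above the EV arrays, by a small margin over EV replicate 2, with a change of 0.22 (95% CI 0.06 to 0.39, unadjusted p = 0.0141, adjusted p = 0.585, limma). RELB had 7.86, 7.90 and 8.01 in ERβ2 plasmid arrays and 7.64, 7.80 and 7.81 in EV arrays, again without overlap, with a change of 0.17 (95% CI 0.01 to 0.33, adjusted p = 0.675). Such separation upward held for 2 of the 10 genes and for 5.35% of all genes, and separation downward for 0 of the 10 and for 6.67% of all genes.

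Of the other genes that rose in the knockdown, REL had 7.10, 7.14 and 7.17 in ERβ2 plasmid arrays and 7.02, 7.19 and 7.15 in EV arrays, which overlapped, with a difference of 0.02 (95% CI −0.13 to 0.16, adjusted p = 0.976). NFKBIZ differed by 0.01 (95% CI −0.10 to 0.13) and NFKBIA by 0.07 (95% CI −0.06 to 0.20). NFKBIE was the only gene below 0, at −0.13 (95% CI −0.30 to 0.03, adjusted p = 0.767, limma). In the lists, no gene upstream, no brake and no IκB-like gene passed. Of the target genes 1 did, LIF, a cytokine of the IL6 family, which rose by 0.56 (SE 0.06, adjusted p = 0.0794, limma), with 8.75 to 8.80 in ERβ2 plasmid arrays and 8.15 to 8.28 in EV arrays. LIF did not pass with all transcript clusters in the fit, with the mean of its clusters, by the methods' test or its q-values, or with any array but EV replicate 2 left out (adjusted p from 0.284 to 0.704).

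**Figure D4:**
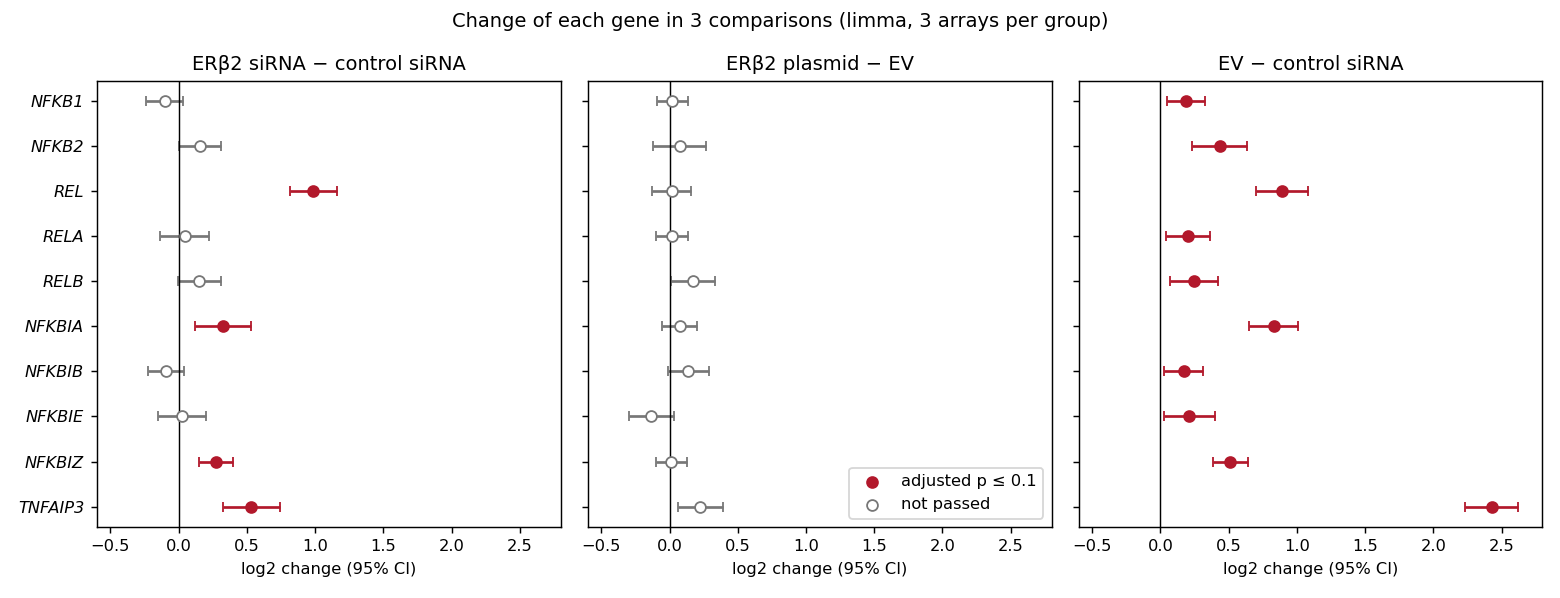
Log2 change of each NF-κB gene with its 95% confidence interval from limma, in 3 comparisons of 3 arrays against 3. Filled red points passed (adjusted p ≤ 0.1) and open points did not. Filled points number 4 for ERβ2 siRNA, none for the ERβ2 plasmid and all 10 for EV minus control siRNA, where TNFAIP3 stands apart at 2.43.

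Between both control groups, all 10 genes were higher in EV cells than in control siRNA cells, and none was lower, whereas 19.2% of all genes were higher and 22.4% lower. The median difference was 0.34, against −0.06 over all genes. TNFAIP3, REL and NFKBIA also reached a fold of 1.5, as 5.57% of all genes did in that direction, and the arrays of the groups did not overlap for any of the 10, against 21.0% of all genes. EV and control siRNA cells differed in time after transfection, reagent, cell density and kind of nucleic acid together, and these cannot be told apart. The comparison also shares the control siRNA arrays with the knockdown and the EV arrays with the overexpression.

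TNFAIP3 had 9.44, 9.64 and 9.41 in EV arrays, against 7.20, 7.03 and 6.98 in control siRNA arrays. The groups were more than 2 log2 units apart, with a difference of 2.43 (SE 0.09, adjusted p = 2.4e-07, limma), a fold of 5.38 and place 68 of 17958 genes. REL had 7.02, 7.19 and 7.15 in EV arrays, against 6.38, 6.14 and 6.17 in control siRNA arrays, a difference of 0.89 (SE 0.08, adjusted p = 9.7e-05). The EV values of REL overlapped with its ERβ2 siRNA values. NFKBIA had 11.11, 11.22 and 11.09 in EV arrays and 10.44, 10.29 and 10.20 in control siRNA arrays. It was 1.78-fold higher (adjusted p = 1.0e-04, limma), and every EV array lay above every siRNA array of either kind. NFKBIZ was higher by 0.51 (SE 0.06, adjusted p = 2.2e-04), with 8.98, 8.96 and 8.99 in EV arrays, and NFKB2 by 0.43 (SE 0.09, adjusted p = 0.00637), with 9.50, 9.77 and 9.46 in EV arrays against 9.17, 9.09 and 9.17 in control siRNA arrays. These 5 genes passed in every fit that left out 1 array.

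The other 5 genes differed by 0.17 to 0.25 and passed less firmly. RELB had 7.64, 7.80 and 7.81 in EV arrays and 7.61, 7.43 and 7.47 in control siRNA arrays, where the lowest EV array lay just above the highest control array (difference 0.25, adjusted p = 0.0384, limma). NFKB1 differed by 0.19 (adjusted p = 0.0492) and RELA by 0.20 (adjusted p = 0.0582). NFKBIB differed by 0.17 (adjusted p = 0.0667) and NFKBIE by 0.21 (adjusted p = 0.0763, limma). Over 17 alternatives, RELB passed in 13, NFKB1 in 12, RELA and NFKBIB in 11 each and NFKBIE in 8. RELA, NFKBIB and NFKBIE did not pass with all transcript clusters in the fit. NFKB1, NFKBIB and NFKBIE did not after median centring, nor RELA, RELB and NFKBIE by the test of the study's methods. After quantile normalization NFKBIE differed by 0.0833 (adjusted p = 0.412, limma). With every array, 3443 of all genes were higher. The number of the 10 genes that passed was 5 without control siRNA replicate 2, beside 2808 of all genes. It was 6 without control siRNA replicate 3, beside 2910 of all genes. Without EV replicate 1 or EV replicate 3 it was 7, beside 3033 and 3148. Without control siRNA replicate 1 or EV replicate 2 it was 9, beside 3331 and 3147.

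The target list was higher in EV cells too, in 26 of 38 genes (68.4%), with 2 lower and a median difference of 0.67. Of all genes, 19.2% were higher and 22.4% lower, the shares to set beside each list. CXCL10, a chemokine best known as an interferon response gene, had the largest difference, 5.70 (SE 0.08, adjusted p = 8.4e-10), with 8.88 to 9.13 in EV arrays and 3.26 to 3.38 in control siRNA arrays. IL6 was higher by 3.28 (adjusted p = 2.1e-08) and the chemokine CCL5 by 2.88 (adjusted p = 2.8e-07, limma). Over 17 alternatives, again with the mean over clusters among them, the difference of IL6 ran from 2 to 3.34. CCL5, lower after ERβ2 knockdown, spanned 11.45 to 11.89 in EV arrays. Of the 25 upstream genes 9 were higher and 3 lower, led by IRAK2 at 1.78, MYD88 at 1.14 and TRAF5 at 1.05, an interleukin-1 receptor kinase and 2 adaptors (adjusted p from 1.5e-06 to 1.0e-04). Of the 17 brakes 6 were higher and 1 lower, with N4BP1 2.15-fold higher, the deubiquitinase CYLD 1.74-fold and TAX1BP1 1.35-fold (adjusted p from 3.4e-06 to 0.00170, limma). BCL3, an IκB-like protein that works with NFKB1 and NFKB2 dimers in the nucleus, was the 1 of 3 such genes that passed, lower by 0.28 (adjusted p = 0.00728), with 8.61 to 8.64 in EV arrays and 8.85 to 8.95 in control siRNA arrays.

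**Figure D5:**
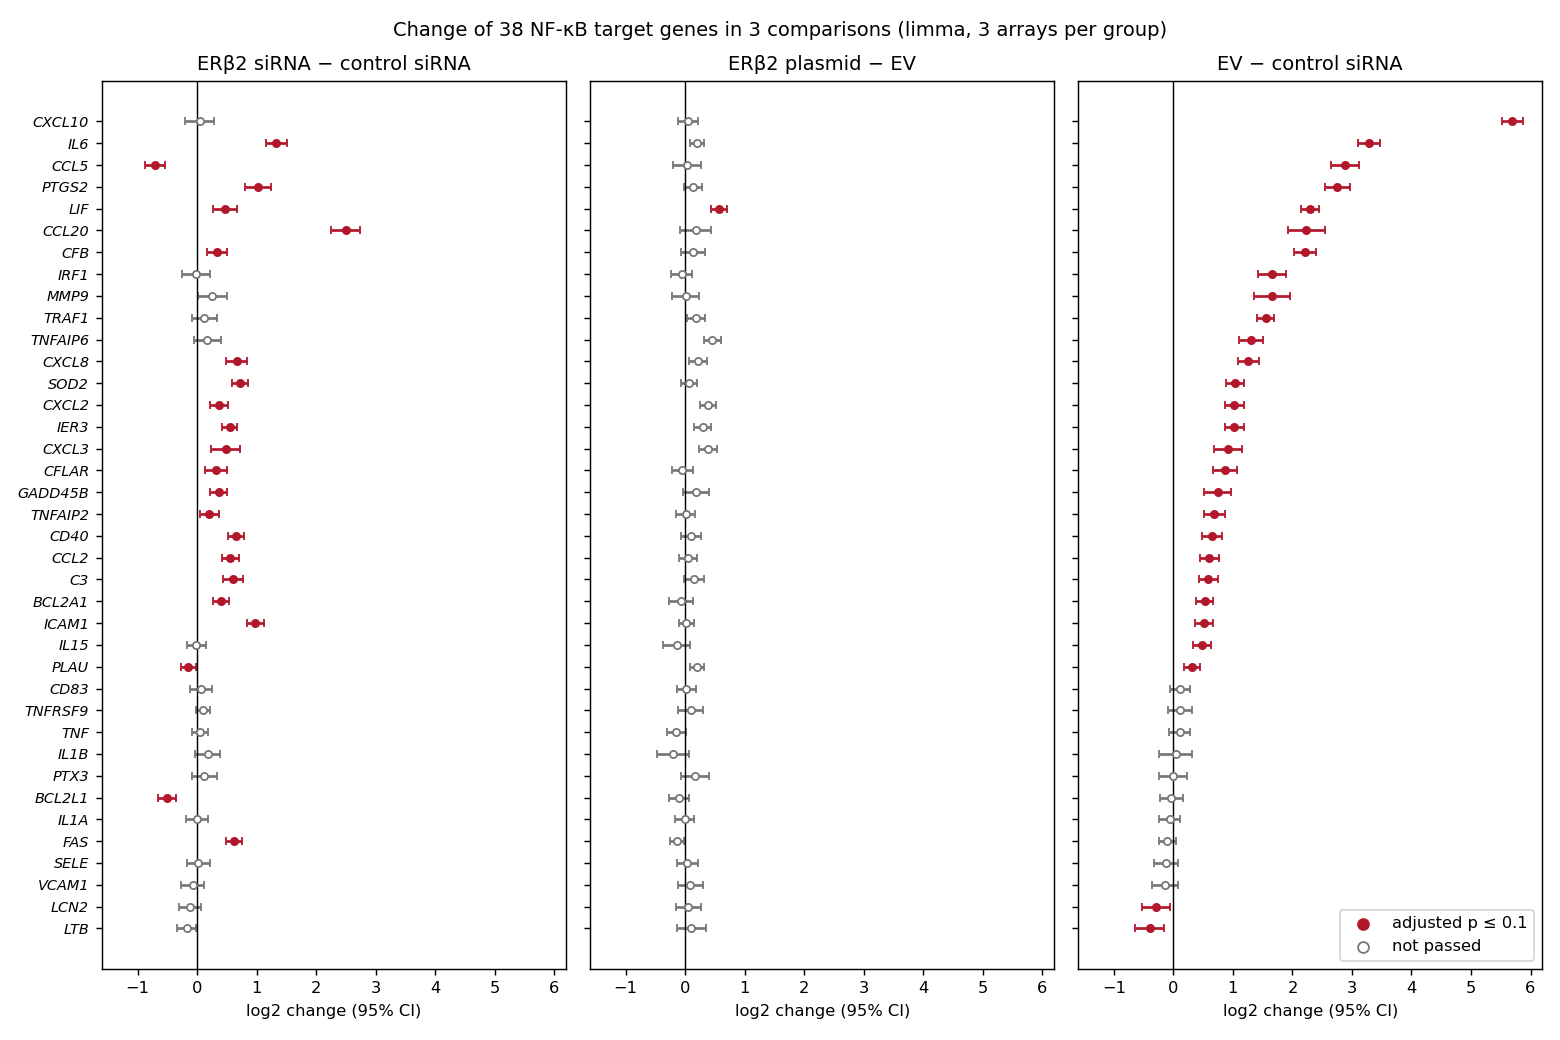
Log2 change of the 38 measured NF-κB target genes with 95% confidence intervals from limma, in 3 comparisons of 3 arrays against 3. Genes are ordered by their EV minus control siRNA difference, and filled red points passed (adjusted p ≤ 0.1) in either direction. CXCL10, at 5.70 for EV minus control siRNA, did not pass for ERβ2 siRNA, and LIF is the only filled point for the ERβ2 plasmid.

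Across the 4 groups the order of levels was much alike within the family. The order was not counted over all genes, so it cannot be called particular to the family. It also repeats in part the difference between EV and control siRNA cells given above. For 8 of the 10 genes the ERβ2 plasmid group had the highest mean and EV came next, and these neighbours overlapped for all of the 8 but RELB and TNFAIP3. The exceptions were REL, for which ERβ2 siRNA came first at 7.22 ± 0.06 (SD, n = 3), and NFKBIE, for which EV came first at 6.64 ± 0.11. Control siRNA had the lowest mean for 8 genes. For NFKB1 and NFKBIB ERβ2 siRNA was lowest, at 9.25 ± 0.04 and 8.57 ± 0.05, next to 9.35 ± 0.07 and 8.67 ± 0.05 in control siRNA cells. TNFAIP3 had 4 groups that did not overlap at all, in the order 9.72 ± 0.03 for ERβ2 plasmid, 9.50 ± 0.13 for EV, 7.60 ± 0.15 for ERβ2 siRNA and 7.07 ± 0.12 for control siRNA. For RELA no neighbours in the order were apart, with means from 9.32 to 9.10, and NFKBIE, with means from 6.64 to 6.43, was alike in this.

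Whether both ERβ2 perturbations had different effects was tested in 1 limma fit over all 12 arrays, as the siRNA effect minus the plasmid effect. REL, NFKBIZ and TNFAIP3 had the larger effect with siRNA and NFKBIB the smaller, so 3 genes passed upward, against 15.0% of all genes, and 1 downward, against 11.3%. For REL the difference was 0.97 (SE 0.10, adjusted p = 2.7e-05), and for NFKBIZ 0.26 (SE 0.06, adjusted p = 0.0111). NFKBIA, which passed in the knockdown and not in the overexpression, had a difference of 0.25 that did not pass (95% CI 0.01 to 0.49, adjusted p = 0.134, limma). It passed with either control siRNA replicate 1 or ERβ2 siRNA replicate 2 left out (adjusted p = 0.0580 and 0.0587).

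The calls of TNFAIP3 and NFKBIB were near the threshold. TNFAIP3 differed by 0.31 (adjusted p = 0.0961) and passed only when control siRNA replicate 1, ERβ2 siRNA replicate 2 or EV replicate 3 was the array left out. Without any 1 of the other 9 arrays its adjusted p ran from 0.103 to 0.207. NFKBIB differed by −0.23 (adjusted p = 0.0736, limma). The call was lost when any of 7 arrays was left out, namely replicates 2 and 3 of ERβ2 siRNA, 1 and 3 of control siRNA, 2 and 3 of the ERβ2 plasmid, and EV replicate 3 (adjusted p from 0.104 to 0.172). Among the lists, the difference was largest for CCL20 (2.32, adjusted p = 2.2e-06), IL6 (1.13, adjusted p = 5.5e-06) and ICAM1, a leukocyte adhesion molecule (0.96, adjusted p = 4.0e-06). That of IL6 ran from 0.557 to 1.18 over 20 alternatives, the mean over its clusters among them. MAP3K8 (0.75), BTRC (−0.72), TRAF5 (0.49), N4BP1 (0.60), TNIP1 (0.56), TAX1BP1 (0.33) and BCL3 (−0.18) passed this test as well (limma). BCL3 no longer passed after median centring (adjusted p = 0.219), with all transcript clusters (0.107), or with any of 8 arrays left out (0.105 to 0.151).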

How the data were processed

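RNA of BT549 cells was hybridised to 12 arrays, 3 per group. The authors made the deposited log2 values, given to 2 decimals, in the Affymetrix Expression Console by RMA, which corrects background, normalizes the arrays to each other and summarises probes into transcript clusters. The sources used here give no software version, and the base of the logarithm, not stated, was taken as 2, which RMA gives. Since RMA scales the probe signals of all arrays to 1 distribution, a shift shared by all genes would not be seen. The medians of the summarised values still differed slightly between arrays.

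Of 33297 transcript clusters, 19181 had 1 gene symbol. Where a gene had several, the one of highest mean signal was kept, which gave 17958 genes with no filter on dim signals. Groups were compared in R 4.3.3 with lmFit and eBayes of limma 3.58.1, 3 arrays against 3, without a replicate block. A gene passed where its p, adjusted by Benjamini-Hochberg over all genes, did not exceed 0.1, and the fold criterion was 1.5. Student's t-test, named in the study's methods, was run as an alternative, with Benjamini-Hochberg adjustment and with q-values. The p-values set each difference against the spread between these cultures of 1 cell line.

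The members and the 4 other gene lists were chosen with earlier results of these data known. Named genes are all 10 members, ESR2, and from each other list up to 3 genes per comparison with the largest change among those that passed. CCL5 in the knockdown, named for its opposite direction, was added after its values were seen. The κB consensus was searched in RefSeq promoter windows of GRCh38.p14. Alternatives were other row choices, a filter on dim genes, 3 further normalizations, other tests and thresholds, the replicate block and leaving out each array. For named genes outside the family these were run after their values had been seen. The fit was tested on simulated data.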

Additional observations from a re-analysis of the deposited data

Results flagged for a closer look

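For 4 of the 10 NF-κB genes the effect of ERβ2 siRNA, relative to control siRNA, differed from the effect of the ERβ2 plasmid, relative to EV, in the limma fit over all 12 arrays. REL had a difference of 0.97 on the log2 scale (adjusted p = 2.7e-05), from effects of 0.99 with siRNA and 0.02 with the plasmid. NFKBIZ had 0.26 (adjusted p = 0.0111), from 0.27 and 0.01. TNFAIP3 had 0.31 (adjusted p = 0.0961), from 0.53 and 0.22, which have the same sign. NFKBIB had −0.23 (adjusted p = 0.0736), from −0.09 with siRNA and 0.14 with the plasmid, and neither of these effects passed on its own. The siRNA is meant to lower ERβ2 and the plasmid to raise it, so a difference of effects is not in itself a conflict. Both perturbations also differ in time after transfection and reagent, which cannot be told apart from the agent. ESR2, the gene both perturbations target, had −0.02 with siRNA and 0.47 with the plasmid, from a weak signal. Its difference of effects was −0.49 (adjusted p = 0.0328, limma).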

How the results depend on the processing

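Over 17 alternatives for each pair of groups and 20 for the difference of effects, REL and NFKBIZ passed in every one in the knockdown, between EV and control siRNA and in the difference of effects, and TNFAIP3 in the first 2 of these. NFKBIA lost its knockdown call by the study's t-test with Benjamini-Hochberg adjustment (adjusted p = 0.124). With a fold of 1.5 required, 1 member and 9 target genes rose in the knockdown, beside 584 of all 17958 genes. In EV cells 3 members were higher, beside 1000 of all genes, and 1 passed upward in the difference of effects, beside 726. With the t-test and q-values, 2 members, NFKB1 and NFKBIB, also passed as lower in the knockdown, beside 3809 of all 17958 genes. Leaving out 1 array gave 4 to 5 members higher in the knockdown, beside 2681 to 3363 of all genes. With the plasmid it gave 0, beside 0 to 4 of all genes, and in EV cells 5 to 9, beside 2808 to 3331. For the difference of effects 2 to 4 members passed upward, beside 2286 to 2805 of all genes, and 0 to 1 downward, beside 1551 to 2015. The downward count was 0 with all transcript clusters, median centring, an adjusted p of 0.05, the fold criterion or the replicate block.

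Changes that turned sign were small and had not passed. Leaving out 1 array gave −0.02 to 0.103 for RELA and −0.0367 to 0.075 for NFKBIE in the knockdown, and −0.0333 to 0.0517 for REL with the plasmid. In the difference of effects it gave −0.0133 to 0.143 for NFKB2, −0.04 to 0.0833 for RELA and −0.06 to 0.0317 for RELB. NFKBIE in the knockdown had −0.0267 after quantile normalization, and RELB in the difference of effects had 0.00667 with median centring.

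Whether samples with the same replicate number were paired was not clear. Their deviations correlated at 0.22, 0.14 and 0.01 in the siRNA groups and at −0.14, −0.09 and 0.10 in the plasmid groups. With the replicate block, 5 members rose in the knockdown, the fifth being NFKB2 (adjusted p = 0.0842, limma), beside 3437 of all 17958 genes. With the plasmid 0 members and 0 of all genes were higher, and LIF did not pass (adjusted p = 0.786). In EV cells 7 members were higher, beside 3121 of all genes, and 3 passed upward in the difference of effects, beside 2513. ERβ2 siRNA replicates 1 and 2 correlated best with the control siRNA array of their own number, and replicate 3 did not. In the plasmid groups this held for ERβ2 plasmid replicate 3 only. The cause of the changed calls was not tested.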

Other observations

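The κB consensus was also counted in the other lists, a reading added after the family's matches were known. It was in the promoter windows of 16 of the 32 target genes in the promoter table (50%), 2 of 3 other IκB-like genes, 3 of 16 brakes (18.8%) and 4 of 26 upstream genes (15.4%), against 7.09% of all genes. Of 1196 measured genes with a match, 21.2% rose after ERβ2 knockdown, against 18.4% of 12668 genes without one, and 4.85% against 3.23% rose at least 1.5-fold, while 18.7% against 17.8% fell. Between EV and control siRNA cells, 19.6% of genes with a match and 19.3% of genes without one were higher, and 7.11% against 5.36% at least 1.5-fold, while 24.6% against 23.0% were lower and 1.92% against 1.26% lower at least 1.5-fold. The median change was nearly the same with and without a match, −0.02 and −0.03 in the knockdown and −0.06 in both sets between EV and control siRNA cells. These shares are a description without a test, and genes with several annotated starts had more windows in which a match could fall.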
